A study of Mus musculus with 40 samples.

Results

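The miR-26 family of the mouse consists of 2 mature guide strands, mmu-miR-26a-5p and mmu-miR-26b-5p, which are cut from hairpins lying in introns of the Ctdsp genes. Its members were taken by name from the deposited raw count table, and 2 of the 1915 mature microRNAs in that table were members. Both were among the 105 microRNAs tested. The libraries came from total blood of male C57B/6J wild-type mice sampled at 4 ages, namely 12 months, 13.5 months, 15 months and 16.5 months, with 10 small RNA libraries per age and 40 in all. The study followed ageing mice by repeated bleeding from the retro-orbital sinus. By its methods the mice were housed singly, received at 12 months and divided into a home-cage set and a set trained in a water maze, and the labels do not say which set a library came from. Nothing in the labels ties a library to a single animal, so each p-value measures the spread between libraries. The column names carry numbers that recur at every age and may stand for animals, which the labels do not state. Age and the number of earlier bleedings rose together, as did training in the mice that were trained, and these cannot be told apart. The column names of the 13.5-month and 15-month libraries followed other naming forms than those of the 12-month and 16.5-month libraries, so a library series and these ages cannot be told apart either.

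MicroRNAs act by loading one strand of a short duplex, the guide, into an Argonaute protein, and the seed near the 5′ end of the guide selects target mRNAs. The other strand, the passenger, is usually degraded. miR-26 is an abundant and broadly expressed family that slows cell-cycle entry. Its known targets include Ezh2, the methyltransferase of the Polycomb complex, and cyclins of the G1 phase, and the transcription factor MYC is known to lower its level in lymphoid tumours. The Ctdsp host genes code for small phosphatases that act on the tail of RNA polymerase II and on the retinoblastoma protein, so that hosts and guests are placed in one growth-restraining circuit.

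The guide strands are shown first because they carry the same seed and are told apart by only a few bases. Mature sequences are from RefSeq on the GRCm38.p6 build, written 5′ to 3′ with the seed, bases 2 to 8, in capitals.
mmu-miR-26a-5p: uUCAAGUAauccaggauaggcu
mmu-miR-26b-5p: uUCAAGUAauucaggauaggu

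Over the 21 positions that both guides have, 19 were identical. Counted from 1 at the 5′ end of miR-26a-5p, the differences were C11U and C21U, and miR-26a-5p was longer, with 22 bases against 21. No other of 1679 mature mouse microRNAs in the RefSeq table carried this seed. The authors counted reads that matched a hairpin without a mismatch, so position 11 separated the members in any read that spanned it. The guides held 9 G or C bases in miR-26a-5p (40.9%) and 7 in miR-26b-5p (33.3%).

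The passenger strands are shown because they tell the hairpins apart where the guides do not, since both miR-26a hairpins yield one and the same guide.
mmu-miR-26a-1-3p: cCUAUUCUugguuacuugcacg
mmu-miR-26a-2-3p: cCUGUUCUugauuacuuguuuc
mmu-miR-26b-3p: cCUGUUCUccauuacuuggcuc

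The passengers of Mir26a-2 and Mir26b shared the seed CUGUUCU and were identical at 18 of 22 positions, with the differences U9C, G10C, U19G and U20C counted from the 5′ end of miR-26a-2-3p. In Mir26a-1 the passenger carried the seed CUAUUCU.

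All 3 hairpins lay on the plus strand, in the same direction as their hosts. Mir26b was at chr1:74394310-74394394 on GRCm38, in intron 4 of the 6 introns of Ctdsp1. Mir26a-1 was at chr9:119031796-119031885, in intron 5 of the 7 introns of Ctdspl, which is 3283 bases long. Mir26a-2 was at chr10:126995530-126995613, in intron 5 of the 7 introns of Ctdsp2. These intron numbers follow one GENCODE M21 transcript per host, and no hairpin overlapped an exon of that transcript. Ctdsp mRNA is not measured by small RNA libraries and was not analysed here.

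The libraries held between 2469196 and 21386209 counts. The red cell microRNA miR-486, whose a and b forms share every count in the table, took 80.9% to 96.5% of the counts when entered once, so the depth left for all other microRNAs ranged from 93002 to 1739959 counts. That depth was lowest at 15 months, with a median of 267135 counts, against 855061.5 at 12, 698499 at 13.5 and 597338 at 16.5 months. Lymphoid miR-150-5p and miR-181a-5p and myeloid miR-223-3p passed the filter for testing. The endothelial and platelet microRNA miR-126a-3p held 0 to 20 reads per library, and none of the 3 markers of its list passed. The libraries are bulk blood, so fewer cells of a type and less RNA per cell cannot be told apart.

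miR-26a-5p was the dominant member in every library. It collected 798342 reads against 47114 of miR-26b-5p, or 16.9 reads of miR-26a-5p for each read of miR-26b-5p. A library held 2367 to 49639 reads of miR-26a-5p and 60 to 3755 reads of miR-26b-5p. Among the 105 tested microRNAs, miR-26a-5p was 10th and miR-26b-5p 45th by mean level. Outside miR-486, miR-26a-5p took 3.0% ± 0.604 of the counts and miR-26b-5p 0.166% ± 0.0743 (mean and SD, n = 40).

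The passenger strands reversed that order. The Mir26b hairpin left 1198 passenger reads, present in all 40 libraries, whereas the miR-26a hairpins together left 33. Of these, 11 reads in 10 libraries came from Mir26a-1 and 22 reads in 15 libraries from Mir26a-2. Per guide read the contrast was wider still, with 2.54 passenger reads per 100 guide reads for miR-26b and 4.13 per 100000 for miR-26a. The passenger reads of Mir26a-1 and Mir26a-2 were too few to apportion the miR-26a-5p guide between its hairpins at any age.

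Across the ages both members changed. Both had their lowest mean at 13.5 months, while miR-26a-5p was highest at 16.5 months and miR-26b-5p at 12 months. The mean of miR-26b-5p was lower at every later age than at 12 months, and only the difference at 13.5 months passed by edgeR. In the test over the 4 ages by edgeR with Benjamini-Hochberg adjustment over all 105 microRNAs, the adjusted p was 0.00043 for miR-26a-5p and 0.00954 for miR-26b-5p. Of all microRNAs tested 61.0% passed this test, so that 2 of 2 members passing does not set the family apart from the rest of the blood microRNAs.

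At 12 months the level of miR-26a-5p, as log2 CPM (counts scaled to a common library size by the TMM method), ran from 10.36 to 11.12 with a median of 10.87. At 13.5 months it ran from 10.22 to 10.95 with a median of 10.46. It ran from 10.54 to 10.96 with a median of 10.62 at 15 months, and from 10.71 to 11.40 with a median of 11.02 at 16.5 months. Every 16.5-month library lay above the 15-month mean and above the 13.5-month mean, although the ranges of all ages overlapped.

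miR-26a-5p rose by 0.50 on the log2 scale between 13.5 and 16.5 months, a fold of 1.42 (SE 0.10, adjusted p = 7.51e-05 by edgeR), and was above the 13.5-month mean in 10 of 10 libraries. Of the 105 microRNAs 40% were called in that comparison. It fell by 0.29 between 12 and 13.5 months (SE 0.10, adjusted p = 0.0256, lower in 8 of 10 libraries), where 29.5% were called. Between 15 and 16.5 months it rose by 0.32 (SE 0.10, adjusted p = 0.0157, higher in 10 of 10 libraries), where 28.6% were called. This last call was lost (0.25, adjusted p = 0.0824) without the 5 libraries that held under 200000 counts outside miR-486.

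The remaining comparisons of miR-26a-5p did not pass. The 16.5-month level differed from the 12-month level by 0.21 (SE 0.10, adjusted p = 0.125 by edgeR), with 23.8% of microRNAs called, and passed without the same 5 libraries (0.25, adjusted p = 0.0468). At 15 months the difference was -0.11 from 12 months (SE 0.10, adjusted p = 0.449), where 23.8% were called, and 0.18 from 13.5 months (SE 0.10, adjusted p = 0.129), where 47.6% were called. In order of mean level the ages ran 13.5, 15, 12 and 16.5 months, and no age differed from its neighbour in this order by the test.

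For miR-26b-5p the 12-month libraries ran from 5.88 to 7.73 log2 CPM with a median of 7.20. At 13.5 months they ran from 5.09 to 7.03 with a median of 6.13. The 15-month libraries ran from 5.10 to 7.20 with a median of 6.48, and those of 16.5 months from 5.44 to 7.16 with a median of 6.51. The later ages overlapped each other almost wholly, and 9 of 10 libraries at each later age lay below the 12-month mean. miR-26b-5p also varied more between libraries of one age than miR-26a-5p, with an SD of 0.51 to 0.65 log2 units against 0.17 to 0.25.

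miR-26b-5p fell by 0.92 on the log2 scale between 12 and 13.5 months, to 0.528 of its earlier level (SE 0.25, adjusted p = 0.0041 by edgeR). Only 4 of the other 104 microRNAs had a lower fold change in that comparison. The differences from 12 months were -0.61 at 15 months (SE 0.25, adjusted p = 0.0761) and -0.63 at 16.5 months (SE 0.25, adjusted p = 0.0626), and neither passed. Among the later ages the differences were 0.31 for 15 against 13.5 months (SE 0.25), 0.30 for 16.5 against 13.5 months (SE 0.25) and -0.02 for 16.5 against 15 months (SE 0.25), with adjusted p of 0.313, 0.341 and 0.973. By mean level the ages ran 13.5, 15, 16.5 and 12 months, and again no neighbours in the order differed by the test.

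**Figure D1:**
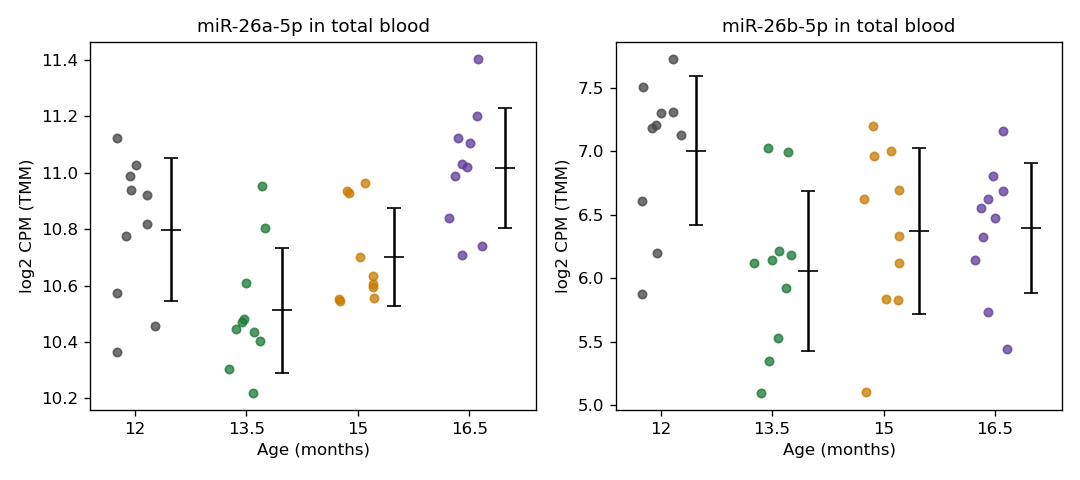
Level of miR-26a-5p (left) and miR-26b-5p (right) in log2 CPM by age in months, with one point per library and a bar for the mean and SD of the 10 libraries of an age. miR-26a-5p was highest at 16.5 months (mean 11.02) and lowest at 13.5 months (10.51), and miR-26b-5p was highest at 12 months (7.01) and lowest at 13.5 months (6.06).

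The choice of scaling moved the values of the later ages. miR-486 took 92.1% ± 2.23 of the counts at 15 months and 86.5% ± 2.68 at 12 months (mean and SD, n = 10 each). When libraries were scaled by their totals alone, the median of all 105 microRNAs moved by -0.84 between 12 and 15 months, by -0.81 between 13.5 and 15 months and by 0.65 between 15 and 16.5 months. Between 13.5 and 15 months both members then turned negative, with -0.54 for miR-26a-5p and -0.38 for miR-26b-5p, yet lay 0.27 and 0.44 above the shifted median. The difference of miR-26b-5p between 15 and 16.5 months turned to 0.56 and lay 0.08 below the median. With the same scaling the call on miR-26b-5p between 12 and 13.5 months was lost at almost the same size (-0.96, adjusted p = 0.107 by edgeR). miR-26a-5p lost its calls between 12 and 13.5 months (-0.33, adjusted p = 0.496 by edgeR) and between 13.5 and 16.5 months (0.40, adjusted p = 0.237 by edgeR).

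A ratio within a library needs no scaling. Members were therefore also compared through the miR-26b-5p to miR-26a-5p ratio, log2 of the reads of each with 0.5 added. The share of family guide reads that came from miR-26b-5p was 6.99% ± 1.95 at 12 months, 4.61% ± 1.73 at 13.5, 4.98% ± 1.57 at 15 and 4.0% ± 0.966 at 16.5 months (mean and SD, n = 10 each). One read of miR-26b-5p was thus matched by a median of 12.7 reads of miR-26a-5p at 12 months and 25.4 at 16.5 months.

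Between 12 and 16.5 months the log2 ratio ran from -4.74 to -3.19 (median -3.67) and from -5.29 to -4.04 (median -4.66). All 10 libraries of 16.5 months were below the 12-month mean, and the ranges overlapped. The ratio fell by 0.83 (SE 0.19, permutation p = 0.00089, adjusted p = 0.00534 over the 6 pairs of ages). At these ages the members' own differences pointed in opposite directions without passing the test, 0.21 for miR-26a-5p and -0.63 for miR-26b-5p.

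The test of the ratio over the 4 ages also passed (permutation p = 0.00452). At 13.5 months the ratio ran from -5.36 to -3.44 with a median of -4.48 and was 0.66 lower than at 12 months (SE 0.23, permutation adjusted p = 0.0356, lower in 9 of 10 libraries). This call was lost in 13 of 20 repeats that left out 1 library, with adjusted p from 0.0084 to 0.0692. It was also lost on ranks (permutation adjusted p = 0.0604) and in pairs by the number that column names share over the ages (exact adjusted p = 0.145). At 15 months the ratio ran from -5.44 to -3.74 with a median of -4.09, and its difference from 12 months was -0.54 (SE 0.23, permutation adjusted p = 0.0638). No pair among the later ages passed, with differences of 0.13, -0.16 and -0.29 (SE 0.25, 0.21 and 0.21).

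**Figure D2:**
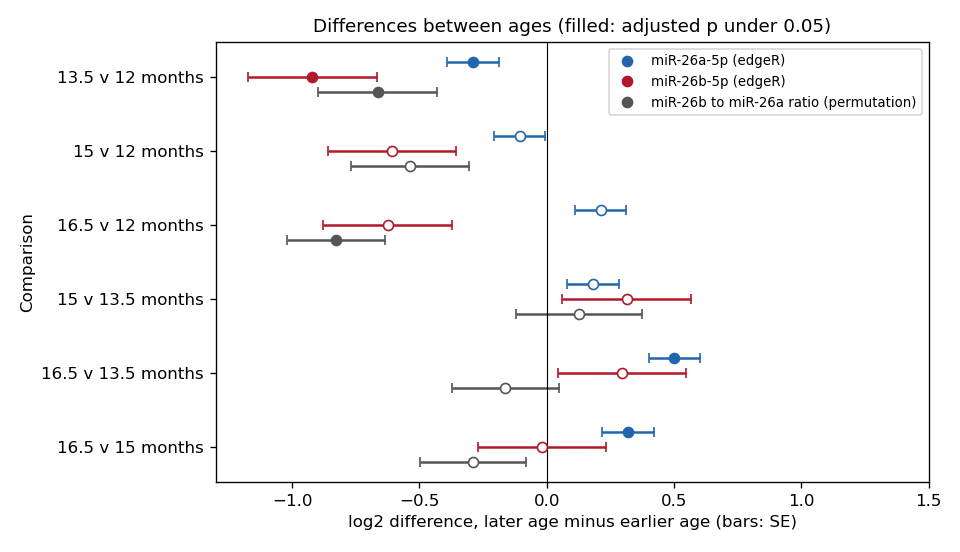
Log2 difference between ages, later minus earlier, for miR-26a-5p and miR-26b-5p from edgeR and for the ratio of both from the permutation test, with SE bars and filled points where the adjusted p was under 0.05. Between 12 and 16.5 months only the ratio was filled (-0.83), with miR-26a-5p at 0.21 and miR-26b-5p at -0.63.

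The ratio moved with sequencing depth at one age. Within the 16.5-month libraries, the ratio was higher where more counts fell outside miR-486 (r = 0.90, permutation p = 0.00018, adjusted p = 0.0012 over 20 relations, rho = 0.77, permutation p = 0.0131, adjusted p = 0.0873, n = 10). Without the 2 libraries farthest from the median depth, r was 0.76. The level of miR-26b-5p showed the same relation at 16.5 months (r = 0.94, permutation p = 0.00014, adjusted p = 0.0012, rho = 0.83, permutation p = 0.00508, adjusted p = 0.0508), with r = 0.76 without the same 2 libraries. For miR-26a-5p at that age r was 0.69 (permutation p = 0.0273, adjusted p = 0.0779, rho = 0.62, permutation p = 0.0617, adjusted p = 0.176), and 0.19 without them. At the other ages r between the ratio and depth was 0.08 at 12, -0.09 at 13.5 and 0.46 at 15 months, with permutation p of 0.828, 0.804 and 0.182. Over all 40 libraries r was 0.37 (permutation p = 0.018, adjusted p = 0.0779, rho = 0.35, permutation p = 0.0262, adjusted p = 0.131), and 0.29 without the 2 farthest libraries.

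With depth as a covariate, chosen after the values were seen, the ratio between 12 and 16.5 months was -0.58 (permutation adjusted p = 0.0226). Leaving out the 5 libraries under 200000 counts outside miR-486, of which 3 were of 15 and 2 of 16.5 months, gave -0.70 (permutation adjusted p = 0.0243). The covariate fit used 1 slope for both ages, whereas r between the ratio and depth was 0.08 at 12 and 0.90 at 16.5 months. Depth ran from 93002 to 1187944 counts at 16.5 months, so some of its libraries lay below every 12-month library. The part of depth in the difference between 12 and 16.5 months was not tested further. The difference between 12 and 15 months turned to 0.09 under the covariate (permutation adjusted p = 0.859). Those ages did not overlap in depth, with 590397 to 1425543 counts outside miR-486 at 12 months and 114748 to 412457 at 15 months. Depth and age cannot be told apart in that pair. The difference between 15 and 16.5 months passed under the covariate at -0.61 (permutation adjusted p = 0.0226). The 15-month column names carried 2 letters, whose meaning is not given, and the ratio averaged -4.44 in the 3 libraries with one letter and -4.28 in the 7 with the other.

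**Figure D3:**
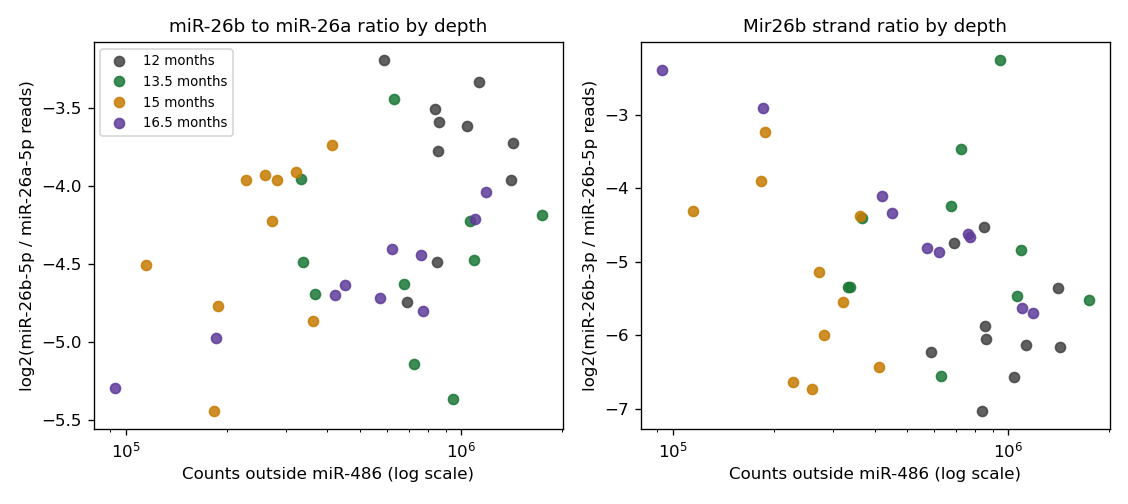
Log2 ratio of miR-26b-5p to miR-26a-5p reads (left) and of miR-26b-3p to miR-26b-5p reads (right) in each of the 40 libraries against the counts outside miR-486 on a log axis, coloured by age. Among the 16.5-month libraries the left ratio rose with depth (r = 0.90) and the right ratio fell with it (r = -0.98).

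miR-26b-3p gave a second within-library ratio, that of passenger to guide from one hairpin, which was added after its values were seen and shares the miR-26b-5p reads with the ratio above. Medians were 1.45 passenger reads per 100 guide reads at 12 months, 2.93 at 13.5, 2.40 at 15 and 3.96 at 16.5 months. On the log2 scale the ratio ran from -7.03 to -4.53 (median -6.09) at 12 months and from -5.70 to -2.40 (median -4.64) at 16.5 months. All 10 libraries of 16.5 months were above the 12-month mean, though the ranges overlapped.

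The strand ratio rose by 1.46 between 12 and 16.5 months (SE 0.42, permutation p = 0.00202, adjusted p = 0.0121), and its test over the 4 ages gave a permutation p of 0.0276. The latter was lost without 1 library of low connectivity at 16.5 months (permutation p = 0.0519) and in 3 of 40 repeats that left out 1 library. The other 5 pairs of ages did not pass, with differences of 1.12 for 13.5 against 12 months, 0.64 for 15 against 12, -0.49 for 15 against 13.5, 0.34 for 16.5 against 13.5 and 0.83 for 16.5 against 15 months (permutation adjusted p from 0.0646 to 0.515). Depth moved with it strongly at 16.5 months (r = -0.98, permutation p = 3e-05, adjusted p = 0.0006, rho = -0.90, permutation p = 0.00083, adjusted p = 0.0166, n = 10, r = -0.92 without the 2 farthest libraries). With depth as a covariate the difference was 0.71 and no longer passed (permutation adjusted p = 0.0771). Without the 5 shallow libraries it was 1.02 (permutation adjusted p = 0.0472). The part of depth in this result was not tested further.

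miR-26b-3p was too low for the main filter, and its own level was tested with the 345 microRNAs that had more than 1 read in at least 50% of the libraries. At 12 months it ran from 0.52 to 1.47 log2 CPM with a median of 1.42, and at 16.5 months from 1.30 to 2.75 with a median of 2.02. It rose by 0.79 between these ages (SE 0.26, adjusted p = 0.0354 by edgeR), where 13.9% of the 345 were called. Over the 4 ages its adjusted p was 0.0422, where 39.1% were called. Counts behind these values were low, from 4 to 115 reads per library.

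**Figure D4:**
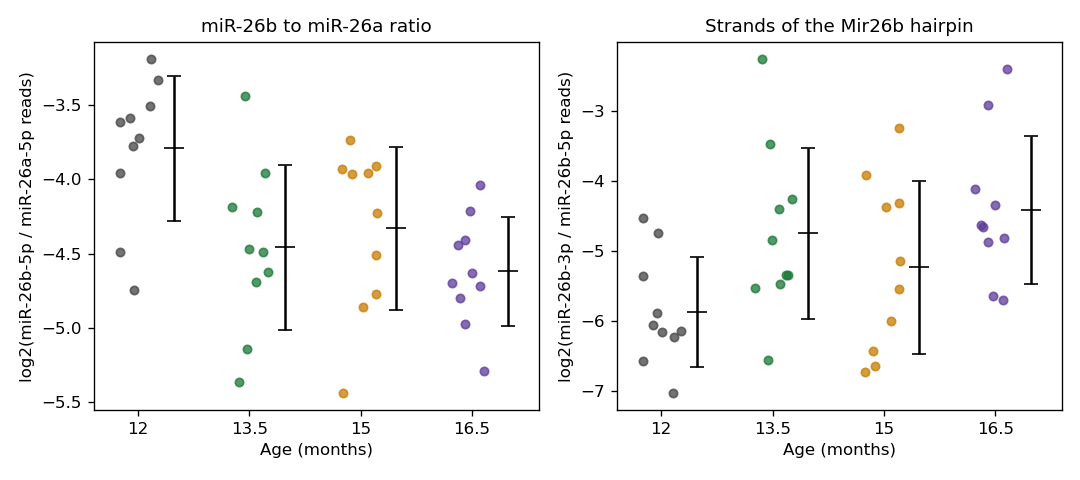
Log2 ratio of miR-26b-5p to miR-26a-5p reads (left) and of miR-26b-3p to miR-26b-5p reads (right) by age in months, with one point per library and a bar for the mean and SD of 10 libraries. The left ratio was highest at 12 months (mean -3.79) and lowest at 16.5 months (-4.62), and the right ratio was lowest at 12 months (-5.87) and highest at 16.5 months (-4.40).

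The members varied together from library to library. Over the 40 libraries, the levels of miR-26a-5p and miR-26b-5p correlated with r = 0.55 (permutation p = 0.00033) and rho = 0.55 (permutation p = 0.0003), and with r = 0.54 without the 2 libraries farthest in miR-26a-5p. This was 1 relation, so no adjustment applies. Within single ages r was 0.58 at 12, 0.51 at 13.5, 0.69 at 15 and 0.78 at 16.5 months (n = 10 each). The unadjusted permutation p were 0.0748, 0.129, 0.0276 and 0.00768 in that order. The 2 values of a library share its scaling factor and its depth.

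Over the 40 libraries, each member had closer partners than its sister. For miR-26a-5p, with likeness taken as Pearson's r of log2 CPM over the 40 libraries, the nearest of 104 microRNAs were miR-186-5p (r = 0.70), miR-361-5p (0.68), miR-144-5p (0.67), miR-425-5p (0.65) and miR-3969 (0.61). miR-26b-5p stood 7th. The most opposed were miR-107-3p (-0.57) and miR-1198-5p (-0.63). With each age centred on its own mean, r was 0.62 for miR-26b-5p, above all of the named nearest microRNAs. These stood at 0.47 for miR-186-5p, 0.53 for miR-361-5p, 0.49 for miR-144-5p, 0.37 for miR-425-5p and 0.29 for miR-3969. The opposed microRNAs stood at -0.15 for miR-107-3p and -0.51 for miR-1198-5p. Under scaling by library totals both opposed microRNAs turned positive, to 0.66 for miR-107-3p and 0.58 for miR-1198-5p. miR-144-5p, from the erythroid cluster that also holds miR-451a, had the same lowest age as miR-26a-5p, with a mean of 2.57 log2 CPM at 13.5 months against 4.41 at 12 and 4.44 at 16.5 months.

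For miR-26b-5p the nearest were the red cell microRNA miR-451a (r = 0.80), miR-24-3p (0.76), the broadly expressed miR-21a-5p (0.76), miR-146b-5p (0.69) and miR-19b-3p of the miR-17-92 cluster (0.69). miR-26a-5p stood 15th. miR-423-5p (-0.77) and miR-1964-3p (-0.80) were the most opposed. With each age centred on its own mean, r was 0.78 for miR-451a and -0.87 for miR-423-5p, so these likenesses were present within ages. Under scaling by library totals r was 0.92 for miR-451a and -0.52 for miR-423-5p, and it turned to 0.06 for miR-1964-3p.

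Base composition moved with these likenesses. Of the other 104 microRNAs, 89 (85.6%) matched a RefSeq sequence by name. Across these 89, the correlation with miR-26b-5p was lower where the G and C share of the mature sequence was higher (r = -0.62), and for miR-26a-5p the value was -0.53. These are descriptions across microRNAs, which are not independent replicates. miR-451a held 36.4% G and C, miR-423-5p 56.5% and miR-1964-3p 63.6%, while miR-24-3p with 54.5% went the other way. The part of base composition in the levels of the members was not tested.

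MYC is known to repress a wider set of microRNAs than miR-26, and 24 of them were listed, the members included. All 24 were in the table and 17 of the other 22 passed the filter. Over the 4 ages 11 of 17 passed the test, beside the 61.0% of all microRNAs. The smallest p belonged to let-7d-5p (adjusted p = 5.13e-06 by edgeR), miR-15a-5p (6.68e-05) and let-7c-5p (0.000328), and the largest to miR-30d-5p (0.166), miR-29a-3p (0.187) and miR-30c-5p (0.284). let-7 microRNAs restrain growth genes, among them Ras and Hmga2, and miR-15a restrains Bcl2.

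Between 12 and 13.5 months, where both members fell, 0 of these 17 were called by edgeR (median 0.05, against 0.01 over all 105), while 4 had an unadjusted p under 0.05 and DESeq2 called 2. Of all 105 microRNAs 29.5% were called there. At 15 against 12 months 6 were lower and 0 higher (median -0.35, against -0.06 over all), beside 23.8% of all microRNAs called. At 16.5 against 12 months 3 were higher and 2 lower (median -0.08, against -0.03), again beside 23.8%. At 15 against 13.5 months 2 were higher and 6 lower (median -0.32, against -0.02), beside 47.6%. At 16.5 against 13.5 months 0 were higher and 2 lower (median -0.04, against 0.02), with 7 at an unadjusted p under 0.05 and 5 called by DESeq2, beside 40% of all microRNAs. At 16.5 against 15 months 5 were higher and 1 lower (median 0.18, against 0.05), beside 28.6%. let-7d-5p fell by 0.98 between 12 and 15 months (adjusted p = 6.38e-05) and rose by 0.93 from there to 16.5 months (adjusted p = 6.18e-05). miR-15a-5p fell by 1.0 between 13.5 and 16.5 months (adjusted p = 4.51e-05), the comparison in which miR-26a-5p rose.

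Of the 6 listed microRNAs of the miR-17-92 cluster that MYC is known to induce, 2 were tested. miR-19b-3p fell by 1.94 between 12 and 13.5 months (adjusted p = 2.06e-07 by edgeR), as miR-26b-5p did, and miR-92a-3p differed by 0.11 (adjusted p = 0.839). Summed over all 6, the level at the 4 ages had medians of 8727, 8868, 8937 and 8777 CPM. This sum mostly follows miR-92a-3p, whose mean level was 13.2 to 13.4 log2 CPM, against 2.37 to 4.31 for miR-19b-3p. It therefore does not show the fall of miR-19b-3p.

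Markers of blood cell types moved with age as well. Of the red cell list 5 of 6 microRNAs were tested and 4 passed over the 4 ages by edgeR, beside 61.0% of all microRNAs, and 2 of the 4 were miR-486a-5p and miR-486b-5p, which share their counts. miR-144-5p fell by 1.60 (adjusted p = 3.01e-05) and miR-451a by 0.84 (adjusted p = 0.0495) between 12 and 13.5 months, when both miR-26 members fell. The other red cell markers tested did not pass there, with differences of -0.01 for miR-486a-5p and miR-486b-5p and 0.05 for miR-16-5p. miR-486a-5p rose by 1.01 between 12 and 15 months (adjusted p = 0.00223). The summed red cell level ran from 616384 to 1232170 CPM at 12 months, 530905 to 1004220 at 13.5, 1003630 to 4060320 at 15 and 550478 to 2062880 at 16.5 months. These sums can exceed the CPM total because the TMM factors rescale the library totals. The miR-486 counts stand under both its a and b names, in the sums and in the library totals alike. The red cell sum mostly follows miR-486, at mean levels of 18.5 to 19.4 log2 CPM, against at most 12.5 for the other red cell markers tested.

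Of the 4 lymphoid markers 3 were tested, and all 3 passed over the 4 ages by edgeR, beside 61.0% of all microRNAs. Against 12 months 1 was higher at 13.5 months, 0 at 15 months (0 also at an unadjusted p under 0.05 and by DESeq2) and 2 at 16.5 months, and no call was lower. Of all microRNAs 29.5%, 23.8% and 23.8% were called in these comparisons, in that order. miR-181a-5p, a regulator of lymphocyte signalling, rose by 1.25 between 12 and 13.5 months (adjusted p = 2.22e-08) and was lower than at 13.5 months both at 15 months (-1.28, adjusted p = 2.77e-08) and at 16.5 months (-0.98, adjusted p = 1.31e-06). miR-342-3p rose by 1.10 (adjusted p = 5.71e-05) and miR-150-5p, abundant in mature lymphocytes, by 0.86 (adjusted p = 0.0273) between 12 and 16.5 months. The sum of the 4 ran from 211 to 483 CPM at 12 months, 414 to 804 at 13.5, 229 to 523 at 15 and 243 to 1008 at 16.5 months.

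Of the 4 myeloid markers 2 were tested and 0 passed over the 4 ages by edgeR, beside 61.0% of all microRNAs. The adjusted p by edgeR were 0.0652 for miR-142a-5p and 0.075 for miR-223-3p. An unadjusted p under 0.05 was found for 1 of them, and DESeq2 called 2. miR-223-3p, a microRNA of granulocytes, fell by 0.59 between 12 and 13.5 months (adjusted p = 0.0281 by edgeR), where 29.5% of all microRNAs were called. The myeloid sum ran from 2141 to 3545 CPM at 12 months, 1407 to 2945 at 13.5, 1942 to 4282 at 15 and 1744 to 3643 at 16.5 months. Liver miR-192-5p rose by 0.55 between 12 and 15 months (adjusted p = 0.0357 by edgeR). The sum of the 2 liver markers ran from 373 to 850, 307 to 710, 556 to 1174 and 323 to 759 CPM at the 4 ages. It mostly follows miR-192-5p, at mean levels of 8.80 to 9.55 log2 CPM, as the other marker did not pass the filter. The platelet and endothelial sum stayed at or under 6.75 CPM in every library. The part of blood cell makeup in the levels of miR-26a-5p and miR-26b-5p was not tested.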

How the data were processed

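Small RNA from mouse total blood was sequenced in 40 libraries (TruSeq small RNA kit, 50 bp single reads, HiSeq2000). The authors trimmed adapters, discarded reads under 18 nucleotides, and counted mature microRNAs with miRDeep2 against mm10 and miRBase hairpins without mismatches, summing hairpins that give one mature microRNA. The deposited raw table holds these read counts. The deposited normalized table holds a signal, the raw counts of 105 microRNAs divided by one factor per column, and was used only as an alternative. FastQC 0.11.5 is named in the submitters' processing notes.

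Counts were tested here with edgeR 4.0.16 (TMM, quasi-likelihood F-test, all ages in one fit, R 4.3.3) on the 105 microRNAs with more than 100 reads in at least 50% of libraries, and adjusted p (Benjamini-Hochberg) under 0.05 was called. An SE is the log2 fold change over the root of F. Log2 CPM used a prior count of 2. Library ratios were tested by two-sided permutation with 100000 resamples, adjusted over the 6 pairs of ages. On simulated counts for 16.5 against 12 months (105 microRNAs, 30 changed by 1 log2 unit), 93.3% were recovered and 2.38% of the calls were false. That change is larger than any member difference in the main fit. The recovery therefore does not speak to the smaller differences that did not pass. With 93002 to 1739959 counts outside miR-486 per library, counting error was small for miR-26a-5p and larger for miR-26b-3p.

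The members and the gene lists were chosen with earlier results of these data known. Named microRNAs were the members, their passengers, the 5 most and 2 least alike to each member, the list members with the 3 smallest and 3 largest p over age, and the cell type markers. Other microRNAs beside these were chosen after their values were seen. Alternatives covered tool (DESeq2 1.42.0, limma 3.58.1), scaling, filter, pseudocount, a factor of unwanted variation, omitted libraries, a block and depth.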

Additional observations from a re-analysis of the deposited data

Results flagged for a closer look

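Within one age, 1 value of the family stood apart from its group. At 12 months the lowest of the 10 libraries had 0.52 log2 CPM of miR-26b-3p, against a group median of 1.42, and its gap to the next library was 0.485 of the whole range. About 1 in 20 such groups is picked out by chance. No library stood apart by this measure in miR-26a-5p, miR-26b-5p or either ratio at any age.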

How the results depend on the processing

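The numbers in the column names that recur over the 4 ages gave 60 same-number pairs with a median correlation of deviations of -0.03, against 0.01 for 540 other pairs, and 6 of 40 libraries correlated best with their own number. The numbers may be animals, which the labels do not state, and libraries that share one did not deviate together by the median. Single pairs ran from -0.87 to 0.86 for the same number and from -0.87 to 0.89 for other numbers. With this spread among unrelated numbers the check cannot decide whether the numbers are animals. The columns do not carry the labels' replicate numbers. With the number as a replicate block, no edgeR call on a member changed, the ratio lost its 13.5 against 12 month call (-0.66, exact adjusted p = 0.145), and miR-26b-5p at 16.5 against 15 months turned to 0.038.

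Both members' tests over age were lost with age as a linear term (adjusted p 0.116 and 0.127), and that of miR-26a-5p without a filter (0.0703). The miR-26b-3p to miR-26b-5p ratio over age gave 0.0519 without the low-connectivity library, and between 12 and 16.5 months 0.71 with depth as a covariate. On ranks the 13.5 against 12 month ratio was -12.5 mean ranks and was lost. The depth covariate took the miR-26b to miR-26a ratio to 0.094 at 15 against 12 months and to -0.61 at 16.5 against 15 months, where it passed. At 15 against 12 months the libraries did not overlap in depth, so depth and age cannot be told apart there for either ratio. The strand ratio turned to -0.88 at 15 against 12 months under the depth covariate and to -0.10 at 16.5 against 13.5 months without shallow libraries. At 13.5 against 12 months it passed with 5 reads added (1.18, permutation adjusted p = 0.0337) and without shallow libraries (1.12, permutation adjusted p = 0.0472). At 16.5 against 15 months it passed with the depth covariate (1.77, permutation adjusted p = 0.00312) and without shallow libraries (0.99, permutation adjusted p = 0.0472).

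For miR-26a-5p, the 13.5 against 12 month call was lost at -0.33 with library totals, -0.29 with the filter of 1 read and -0.34 without a filter, and the 16.5 against 13.5 month call at 0.40 with library totals. At 15 against 12 months library totals gave a called -0.87, where 2 of all microRNAs were called higher and 82 lower, with a median of -0.84. The sign of miR-26a-5p in that comparison turned with miR-486 left out (0.0015), with only both ages fitted (0.017) and without shallow libraries (0.0066). At 16.5 against 12 months it passed with a factor of unwanted variation (0.26) and without shallow libraries (0.25). At 15 against 13.5 months it passed with DESeq2 (0.29), median-ratio factors (0.29), limma (0.30), miR-486 left out (0.26), both ages alone (0.27) and without shallow libraries (0.29), and turned to -0.54 with library totals. At 16.5 against 15 months it was lost with the filter of 1 read (0.34), no filter (0.35), limma (0.25), miR-486 left out (0.24), the depth covariate (0.26) and without shallow libraries (0.25).

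For miR-26b-5p, the 13.5 against 12 month call was lost with library totals (-0.96). At 15 against 12 months it passed with library totals (-1.34, beside a median of -0.84 over all microRNAs), a factor of unwanted variation (-0.48) and voom weights (-0.62). At 16.5 against 12 months it passed with DESeq2 (-0.63), the factor (-0.36), voom (-0.59) and both ages alone (-0.63). At 15 against 13.5 months it passed with voom (0.50) and without shallow libraries (0.59) and turned to -0.38 with library totals, and at 16.5 against 13.5 months it passed with the factor (0.33) and voom (0.53). At 16.5 against 15 months the sign turned with library totals (0.56), the filter of 1 read (0.0090), no filter (0.017), the factor (0.12), voom (0.029) and without the low-connectivity library (0.058).

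Leaving out 1 library gave ranges of -0.78 to -0.56 for the ratio at 13.5 against 12 months and -0.64 to -0.41 at 15 against 12 months, 0.0145 to 0.0569 for the strand ratio's p over age, 0.15 to 0.32 and 0.24 to 0.35 for miR-26a-5p at 15 against 13.5 and 16.5 against 15 months, and -0.71 to -0.49, -0.71 to -0.55 and -0.13 to 0.087 for miR-26b-5p at 15 against 12, 16.5 against 12 and 16.5 against 15 months. The ratio between 12 and 16.5 months held under all 6 alternatives and all 20 omissions. In each of these, some 16.5-month libraries were shallower outside miR-486 than every 12-month library. The cause of these changes was not tested.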
